A study of Mus musculus with 10 samples.

Results

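The potassium channel genes of the mouse were examined in RNA sequencing of liver tissue. A gene entered the list when its symbol began with Kcn, went on with lower-case letters and then held a number, and 49 of the 16697 gene entries of the table met this rule. They fell by symbol into 8 two-pore channels (Kcnk), 9 inward rectifiers (Kcnj), 15 voltage-gated channels, 7 calcium- or sodium-activated channels (Kcnma, Kcnn, Kcnt and Kcnu), 9 auxiliary subunits, and 1 further transcript, Kcnq1ot1. Expression was compared in normal liver of wild-type mice (NL, n = 4), liver tumours made with c-MYC and the empty pT3-EF1α vector (c-MYC, n = 3) and liver tumours made with c-MYC and FOXO1AAA together (c-MYC/FOXO1AAA, n = 3). FOXO1AAA is a MYC-tagged FOXO1 that stays active because the sites phosphorylated by AKT are replaced, and it was expressed from the EF1α promoter.

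Both tumour groups carried plasmids that had been pushed into the liver by hydrodynamic tail vein injection, with the sleeping beauty transposase to insert them into hepatocytes. The NL group had none of these plasmids, so the c-MYC transgene and the injection cannot be told apart in a comparison with NL. The descriptions differ on whether the control tumours also carried MCL1, and the labels (C57BL/6) and the methods (FVB/N) name different strains. Age and sex of each mouse were not used here. The labels do not say that each library came from a separate mouse, and the p-values measure only the spread between these libraries. The study used the libraries to ask whether activated FOXO1 alters the molecular features of c-MYC tumours.

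The libraries held 13.12 to 20.55 M (mega) reads in listed genes. Foxo1 averaged 7.14 FPKM (SD 0.532) in NL and 5.63 (SD 0.721) in c-MYC, against 83.1 (SD 12.8) where FOXO1AAA was given. FPKM are fragments scaled to gene length and to library size.

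The mouse gene Myc went against the c-MYC label, at 11.2 FPKM (SD 8.17) in NL, 0.771 (SD 0.254) in c-MYC and 0.983 (SD 0.118) with FOXO1AAA, and was called lower in c-MYC than in NL (log2 fold change -3.61, SE 0.50, limma adjusted p 0.000219). Whether reads of the c-MYC transgene are counted under this symbol is not given in the sources used here, and both tumour groups are called by their labels, also where a direction is given.

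The summed FPKM of 6 hepatocyte markers ranged from 76110 to 84240 in NL, from 3358 to 5312 in c-MYC and from 834.5 to 1509 with FOXO1AAA. The summed FPKM of 5 skeletal muscle markers (Myod1, Myog, Acta1, Ckm and Myf5) ranged from 0.365 to 0.490 in NL, from 0.964 to 5.11 in c-MYC and from 120.1 to 175.7 with FOXO1AAA. No library of NL or c-MYC held more than 3 reads of Myod1, Myog or Myf5. The 5 listed of 7 smooth muscle and pericyte markers summed to 12.8 to 15.2 FPKM in NL, 7.12 to 16.8 in c-MYC and 57.6 to 108 with FOXO1AAA. Of these, Acta2 (log2 fold change 4.20, limma adjusted p 4.66e-05) and Pdgfrb (2.56, limma adjusted p 3.5e-05) were called higher with FOXO1AAA than in c-MYC. Acta2 made up most of the sum with FOXO1AAA. The means of Rgs5, Cspg4 and Myh11 went down, from 4.07, 1.99 and 0.326 FPKM in c-MYC to 1.52, 0.737 and 0.154. Rgs5 and Cspg4 were not called there (limma adjusted p 0.179 and 0.156), and Myh11 was not tested. The 6 endothelial markers summed to at most 22.9 FPKM in NL and c-MYC and to 29.1 to 42.5 with FOXO1AAA. Cdh5 was called higher there than in c-MYC (2.49, limma adjusted p 0.000143), at 25.95 against 4.605 FPKM. The means of Pecam1, Kdr, Emcn and Stab2 were lower with FOXO1AAA than in c-MYC, and that of Tek was higher. None of these was called. The 2 listed of 3 B cell markers summed to at most 1.31 FPKM in NL and c-MYC and to 7.02 to 11.97 with FOXO1AAA. The B cell rise was through Cd79a (5.43, limma adjusted p 0.000127). Macrophage markers summed to 210 to 369 FPKM in NL, 114 to 139 in c-MYC and 74.6 to 124 with FOXO1AAA. Most of the NL sum was Clec4f, at 208 FPKM in NL and 4.66 in c-MYC. In c-MYC versus NL, Clec4f and Marco were called lower and Cd68 was called higher (2.34, limma adjusted p 4.27e-05). Adgre1, Csf1r and C1qa were not called in that comparison. The sums of the bile duct and of the T and NK cell markers overlapped between NL and c-MYC and between c-MYC and the tumours with FOXO1AAA. The bile duct sum was 20.1 to 27.9 FPKM in NL and 30.2 to 38.1 with FOXO1AAA. Its members moved apart, as Krt19 (4.03, limma adjusted p 0.00299) and Spp1 (4.11, limma adjusted p 1.92e-06) were called higher with FOXO1AAA than in c-MYC. Epcam was called lower there (-3.00, limma adjusted p 0.000354). In c-MYC versus NL, Epcam and Krt7 were called higher and Spp1 lower. The only listed neural marker of 5 stood at 1.74 to 4.06 FPKM in NL, 0.274 to 0.777 in c-MYC and 1.10 to 1.68 with FOXO1AAA. The part of these shifts in the channel genes was not tested, and in whole tissue fewer cells of a type cannot be told apart from less RNA per cell.

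Potassium channels let potassium ions leave or enter the cell along their gradient and so set the membrane potential. Two-pore channels pass a steady leak current, inward rectifiers hold the potential near rest, and voltage-gated channels open on depolarization. Most channels grouped as calcium- or sodium-activated open when these ions rise inside the cell, and Kcnu1 is placed there by symbol only. Auxiliary subunits bind the pore-forming proteins and change their gating or their number at the membrane. In hepatocytes the potassium conductance supports bile secretion, transport of amino acids and regulation of cell volume, while most voltage-gated members are best known from nerve, heart and muscle.

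Most of the 49 listed channel genes were near the limit of detection in normal liver and in c-MYC tumours, and nearly all of them were read in tumours with FOXO1AAA. More than 3 reads in every library were found for 20 of 49 members in NL, for 20 in c-MYC and for 43 with FOXO1AAA. The same limit was passed by 80% of all 16697 genes in NL, by 85% in c-MYC and by 91.8% with FOXO1AAA, so the share of the channel genes moved from 40.8% in NL and in c-MYC to 87.8% with FOXO1AAA. Library sizes had been rescaled by the authors, with factors from 0.649 to 0.684 in NL and from 1.26 to 1.502 in the tumours, and 3 reads therefore stood for a higher FPKM in NL. At an equal level of 0.334 RPM (reads per M of effective library size), the members counted were 20 in NL, 17 in c-MYC and 40 with FOXO1AAA. Of all 16697 genes, 80%, 80.6% and 87.3% passed this level in the same order.

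The number of members with no read in any library was 9 in NL, 9 in c-MYC and 0 with FOXO1AAA. A mean of at least 1 FPKM was reached by 6, 9 and 22 members in the same order. The shares of all genes with no read, or with such a mean, were not counted. By which rule genes entered the deposited table is not given in the sources used here. If genes without reads were left out, a member read only with FOXO1AAA was listed through those libraries. These counts of listed members are therefore a description. All 9 inward rectifiers had more than 3 reads in every library with FOXO1AAA, against 3 in NL and 4 in c-MYC. For the voltage-gated channels the numbers were 7 of 15 in NL, 4 in c-MYC and 13 with FOXO1AAA.

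**Figure D1:**
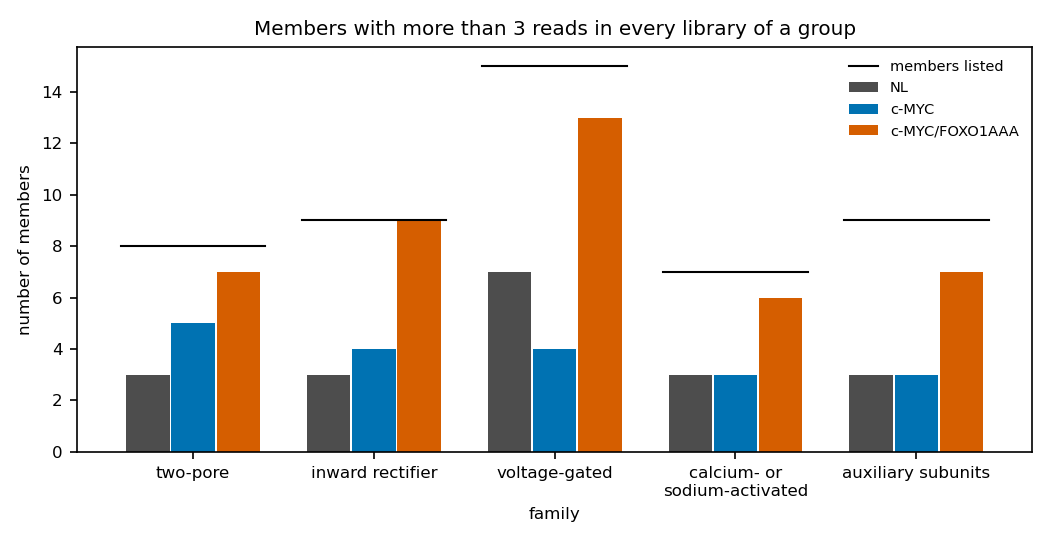
Number of members (y axis) of each family (x axis) with more than 3 reads in every library of NL, c-MYC and c-MYC/FOXO1AAA, with a black line at the number of members listed. In each family the c-MYC/FOXO1AAA bar is the highest, and for the inward rectifiers it meets the line at 9.

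Summed over all members, the reads came to 156 RPM (SD 16.6, n = 4) in NL, 173 RPM (SD 50.2, n = 3) in c-MYC and 329 RPM (SD 35.9, n = 3) in the tumours with FOXO1AAA. The libraries with FOXO1AAA (289 to 359) lay above all others (135 to 230). Per M of reads without the rescaling of library sizes, the means were 105 in NL, 219.5 in c-MYC and 484 with FOXO1AAA. The nearness of NL and c-MYC therefore rests on the scaling. The order of a family sum between NL and the tumours can depend on it as well. The families differed in how these reads were divided. The two-pore channels held 53.9 to 88.3 RPM in NL and 40.2 to 48.5 with FOXO1AAA, with 43.6, 106 and 44.7 in c-MYC 1, 2 and 3. Their order between NL and c-MYC/FOXO1AAA depends on the scaling. The voltage-gated channels held 11.1 to 16.8 in NL, 43.9 to 75.1 in c-MYC and 102 to 169.4 with FOXO1AAA, without overlap between the groups. The c-MYC sum was mostly 1 gene, Kcnh2, with 941, 1253 and 630 reads, where no other voltage-gated member had more than 137.

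The calcium- or sodium-activated channels were lower in c-MYC (13.7 to 25.1) than in NL (47.8 to 59.0), while c-MYC/FOXO1AAA (45.3 to 66.4) overlapped NL. The auxiliary subunits were at 3.16 to 6.07 in all NL and c-MYC libraries and at 49.9 to 79.2 with FOXO1AAA. The sum with FOXO1AAA was mostly Kcnmb2, with 1738, 1122 and 947 reads, where no other auxiliary member had more than 91. Among the pore-forming families the inward rectifiers held the fewest reads in every library but c-MYC 3, where they held 18.5 and the calcium- or sodium-activated channels 13.7.

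**Figure D2:**
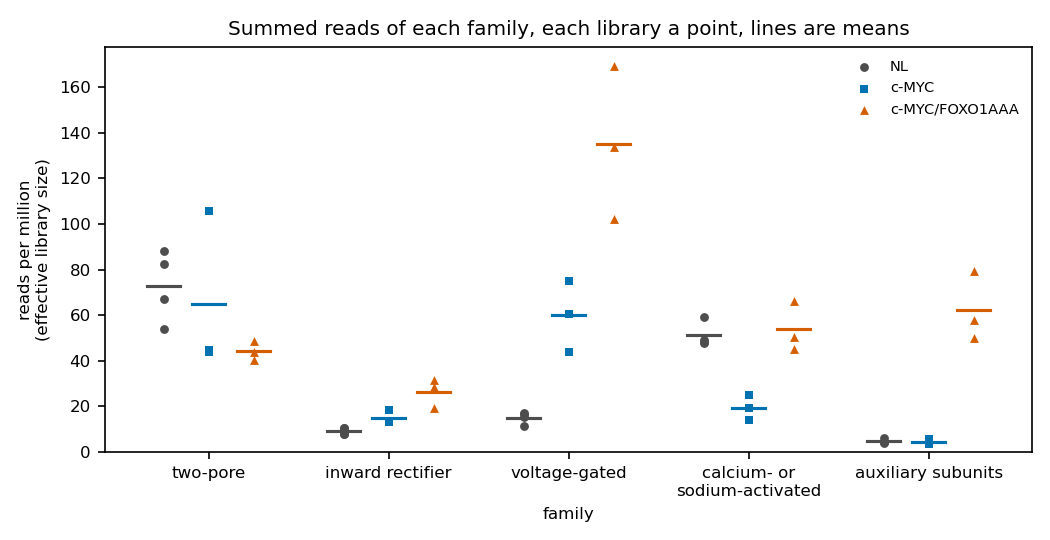
Summed reads of each family (x axis) in RPM (y axis), with a point for each library and a line at the group mean. The voltage-gated sums step up from NL to c-MYC to c-MYC/FOXO1AAA, and the auxiliary sums are high in libraries with FOXO1AAA. Most voltage-gated reads in c-MYC are of Kcnh2, and most auxiliary reads with FOXO1AAA are of Kcnmb2.

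Single genes were compared with limma, as a test for a change above 1.5-fold with Benjamini-Hochberg adjustment over 14017 genes that had at least 1 FPKM in at least 3 libraries. A gene was called at an adjusted p under 0.05. Of the 49 members, 23 passed this filter, and 12 of these passed it through the libraries with FOXO1AAA alone. Those 12 had to be higher with FOXO1AAA than elsewhere, and their counts below are a description. In c-MYC versus NL, 4 members were called higher (Kcnk16, Kcnj10, Kcnh2 and Kcne3), where 24.5% of all genes tested were, and 5 were called lower (among them Kcnk3, Kcnk5, Kcnn2 and Kcnt2), where 23.6% were. Both counts are near what these shares give for 23 genes.

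In tumours with FOXO1AAA against c-MYC, 13 of the 23 members were called higher, against a background of 15.9%, and 3 were called lower (Kcnj10, Kcna2 and Kcnn1), against 12.7%. In tumours with FOXO1AAA against NL, 15 were higher (background 31.2%) and 4 were lower (Kcnk5, Kcna2, Kcnn1 and Kcnn2, background 26.6%). The c-MYC libraries entered both of the first 2 comparisons. Kcnj8 and Kcnab2 were called in no comparison.

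Without the filter all 49 members were tested among 16697 genes. These are the genes listed in the deposited table, whose rule for entry is not given. Their counts are therefore a description as well. The c-MYC tumours then had 5 members higher and 9 lower than NL, where 22.5% and 22.3% of all genes were called. The tumours with FOXO1AAA had 23 members higher and 4 lower than c-MYC, where 17.2% and 11.6% of all genes were called. Against NL they had 27 higher and 6 lower, where 31.2% and 24.6% were called. The median log2 fold change over all 49 members was 0.00 in c-MYC versus NL, 1.75 in tumours with FOXO1AAA against c-MYC and 2.04 in tumours with FOXO1AAA against NL, beside 0.06, 0.07 and 0.26 over all 16697 genes. A fold change on this scale understates the change of genes with few reads, because the deposited values contain a prior count.

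By family and without the filter, members called higher with FOXO1AAA than in c-MYC were 3 of 8 two-pore and 5 of 9 inward rectifier genes. They were 8 of 15 voltage-gated, 4 of 7 calcium- or sodium-activated and 3 of 9 auxiliary genes. Of all 16697 genes, 17.2% were called higher and 11.6% lower there. No two-pore gene was called lower in that comparison, and each of the other 4 families had 1 lower. The median log2 fold changes of the listed genes were 0.87, 2.09, 2.04, 2.67 and 1.61 in the same order of families, beside 0.07 over all genes. In c-MYC versus NL the numbers higher and lower were 1 and 3 for the two-pore, 2 and 0 for the inward rectifier, 1 and 3 for the voltage-gated, 0 and 2 for the calcium- or sodium-activated and 1 and 1 for the auxiliary genes. Of all 16697 genes, 22.5% were called higher and 22.3% lower in c-MYC versus NL. The differences between families were not tested.

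**Figure D3:**
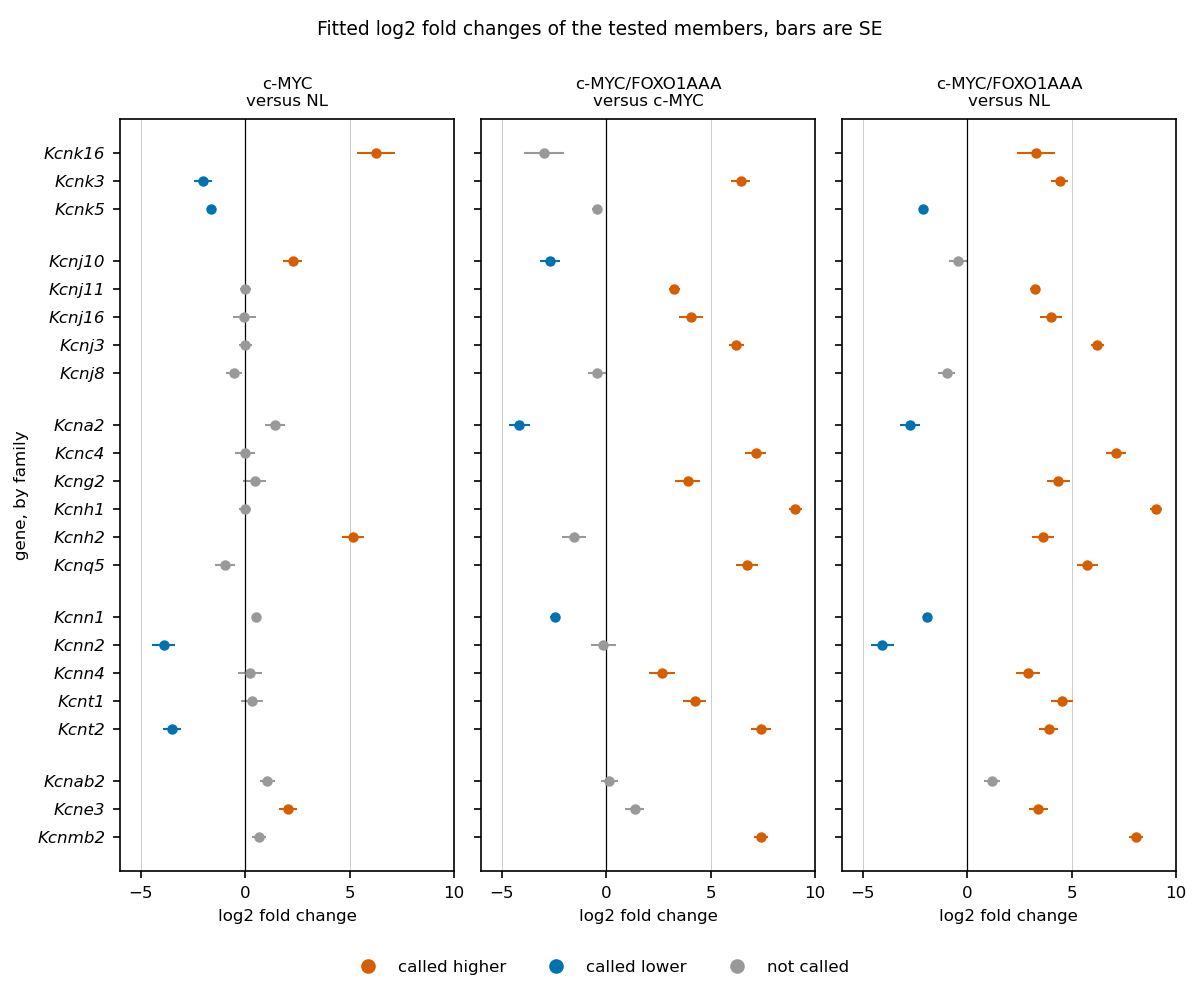
Fitted log2 fold change (x axis) of 22 of the 23 tested members (y axis, by family) in the 3 comparisons, with bars of 1 SE and colour by call. Orange points lead the middle and right panels, with 12 and 15 of the members drawn called higher, and the left panel has 4 higher and 4 lower.

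The two-pore family changed its leading member between normal liver and c-MYC tumours. Kcnk5 (chromosome 14, 20140057 to 20181809, minus strand), a leak channel opened by alkaline pH and known from kidney and bile duct epithelium, was the highest of the family in NL. Its FPKM were 24.1, 18.6, 14.5 and 22.6 in NL 1 to 4, 6.14, 6.23 and 6.39 in c-MYC, and 4.87, 5.80 and 3.36 with FOXO1AAA. All tumour libraries lay below all NL libraries. The log2 fold change was -1.65 in c-MYC versus NL (SE 0.21, limma adjusted p 0.00066) and -2.10 in tumours with FOXO1AAA against NL (SE 0.21, limma adjusted p 3.59e-05). With equal FPKM totals in all libraries, a rescaling that moved the median over all genes tested in c-MYC versus NL from 0.08 to 1.01, the values were -0.72 and -1.004 and neither was called (limma adjusted p 0.363 and 0.0529).

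Kcnk16 (chromosome 14, 20261376 to 20269199, minus strand), the other side of this exchange, is a leak channel best known from pancreatic islets. It lies 79567 bp from Kcnk5 on the same strand. Its FPKM were 1.32, 0.129, 0.353 and 0.616 in NL 1 to 4, where it had 0 to 12 reads. They were 21.5, 85.8 and 20.8 in c-MYC and 3.14, 1.63 and 15.2 with FOXO1AAA. The c-MYC libraries lay above all others, and c-MYC 2 stood at about 4 times the other two. Its fitted log2 fold change in c-MYC versus NL was 6.27 (SE 0.91, limma adjusted p 0.000229).

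The level of Kcnk16 rested on single libraries in each group. Its c-MYC mean of 42.7 FPKM was 21.2 without c-MYC 2, its c-MYC/FOXO1AAA mean of 6.66 was 2.39 without c-MYC/FOXO1AAA 3, and its NL mean of 0.603 was 0.366 without NL 1. In tumours with FOXO1AAA against NL the log2 fold change was 3.28 (limma adjusted p 0.0152, SE 0.91), and the call was lost without c-MYC/FOXO1AAA 3 (log2 fold change 2.37, limma adjusted p 0.0724). In tumours with FOXO1AAA against c-MYC it was -2.98 (SE 0.98, limma adjusted p 0.0644), and the call was made without c-MYC/FOXO1AAA 3 (limma adjusted p 0.0153). No transcript of the pancreatic islet markers Ins1, Ins2, Gcg, Iapp and Sst was listed in the table.

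Kcnk3 (chromosome 5, 30588170 to 30625271, plus strand), an acid-sensitive leak channel of smooth muscle, heart and carotid body, had 5, 7, 6 and 3 reads in NL, 0, 3 and 0 in c-MYC, and 412, 541 and 160 with FOXO1AAA. Its FPKM in the last group were 4.42, 4.78 and 2.17, above all other libraries (0.0311 to 0.226). Of the smooth muscle and pericyte markers, Acta2 and Pdgfrb were also higher in this group than in c-MYC, while the means of Rgs5, Cspg4 and Myh11 were lower. The part of such cells in the level of Kcnk3 was not tested. The reads per effective library size were 278 times those of c-MYC, with a 95% exact interval from 94.9 to 1350 that covers counting error only. On the log2 scale the change was 6.44 against c-MYC (SE 0.46, limma adjusted p 1.9e-06) and 4.42 against NL (SE 0.43, limma adjusted p 7.34e-06). Kcnk3 was also called lower in c-MYC than in NL, with a fitted value of -2.01 on the log2 scale (SE 0.43, limma adjusted p 0.00858), but that call rests on 3 reads in c-MYC and 21 in NL and was lost with a pseudocount of 0.1 FPKM (limma adjusted p 0.263).

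The other two-pore members were below the filter. Kcnk1, a weak leak channel, had 9, 4, 4 and 6 reads in NL, 0 in each c-MYC library and 36, 69 and 16 with FOXO1AAA. It was called lower in c-MYC than in NL without the filter (limma adjusted p 0.000644), at least 3.54-fold against 3 reads per library, and higher with FOXO1AAA than in c-MYC (limma adjusted p 5.81e-05), at least 9.35-fold. Kcnk2, a stretch-sensitive channel, had no read in c-MYC and 40, 26 and 32 reads with FOXO1AAA, at least 8.41-fold higher (limma adjusted p 0.000163). Kcnk6 stood at 0.692, 0.788 and 0.600 FPKM in NL, c-MYC and c-MYC/FOXO1AAA and was called in no comparison.

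Inward rectifiers were low in all groups. Of the 5 tested, Kcnj16, Kcnj3 and Kcnj11 were called higher with FOXO1AAA than in c-MYC, where 15.9% of all genes tested were, and Kcnj3 and Kcnj11 had passed the filter through the libraries with FOXO1AAA alone. Kcnj16 (chromosome 11, 110968033 to 111027968, plus strand) forms pH-sensitive channels with Kcnj10 in kidney and glia. Its FPKM were 1.35, 0.780, 0.521 and 0.279 in NL, 0.536, 0.530 and 0.793 in c-MYC, and 16.5, 5.10 and 12.6 with FOXO1AAA, which was above all other libraries. The fitted change in log2 units against c-MYC was 4.06 (SE 0.57, limma adjusted p 0.000376). The authors had scaled this gene to a length of 424 bp, where its longest transcript has 3701 bp, and per longest transcript the 3 libraries stood at 1.89, 0.584 and 1.44 FPKM. Its reads were 169, 61 and 102.

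Kcnj10 went the other way. Its FPKM were 0.474, 0.218, 0.211 and 0.393 in NL, 1.30, 1.66 and 1.47 in c-MYC, and 0.165, 0.152 and 0.456 with FOXO1AAA. The c-MYC libraries stood above the others, and NL overlapped c-MYC/FOXO1AAA. As a log2 fold change this was 2.27 in c-MYC versus NL (SE 0.45, limma adjusted p 0.00437) and -2.71 in tumours with FOXO1AAA against c-MYC (SE 0.48, limma adjusted p 0.00283). The mean of 0.257 FPKM with FOXO1AAA was 0.158 without c-MYC/FOXO1AAA 3. Kcnj16 and its partner Kcnj10 therefore had their highest levels in different tumour groups.

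Kcnj3, a subunit of the G protein-gated channels of the heart atrium and of neurons, had 0 reads in all 7 NL and c-MYC libraries and 280, 162 and 215 reads with FOXO1AAA. It was at least 56.6-fold higher than in c-MYC and at least 27.7-fold higher than in NL, taken against 3 reads per library (limma adjusted p 3.06e-07 and 4.49e-08). Kcnj11, the pore of the ATP-sensitive channel of pancreatic beta cells and muscle, also had 0 reads in those 7 libraries and 24, 37 and 17 with FOXO1AAA. It was at least 6.28-fold higher than in c-MYC (limma adjusted p 9.6e-06).

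The regulatory subunits of ATP-sensitive channels lie beside the pores. Abcc8 lies 3759 bp from Kcnj11 and had 0 reads in NL, 3, 1 and 2 in c-MYC and 11, 55 and 17 with FOXO1AAA. Its reads per effective library size were 10.4 times those of c-MYC (95% exact interval from 4.57 to 29.1, limma adjusted p 0.006) and they were at least 3.66-fold higher than in NL, taken against 3 reads per library. Abcc9 lies 16248 bp from Kcnj8, the pore found in vascular smooth muscle. Kcnj8 was the highest inward rectifier of NL, at 2.53, 2.05, 2.38 and 3.02 FPKM, against 1.86, 0.859 and 3.02 in c-MYC and 0.907, 1.14 and 1.89 with FOXO1AAA. NL and c-MYC overlapped, and its log2 fold change of -0.98 in tumours with FOXO1AAA against NL (SE 0.40) was not called (limma adjusted p 0.259). Abcc9 stood at 3.02, 1.41 and 1.02 FPKM and was lower with FOXO1AAA than in NL (log2 fold change -1.56, SE 0.28, limma adjusted p 0.00587).

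Of the 4 inward rectifiers below the filter, Kcnj12, a strong rectifier of heart and skeletal muscle, had no read in NL or c-MYC and 37, 47 and 41 reads with FOXO1AAA, at least 10.5-fold above c-MYC (limma adjusted p 3.33e-06, no filter). Kcnj4 had 1 read over the 4 NL libraries, 12, 9 and 4 in c-MYC and 56, 99 and 26 with FOXO1AAA. It was called higher in c-MYC than in NL (limma adjusted p 0.0107) and higher again with FOXO1AAA than in c-MYC (log2 fold change 2.09, SE 0.45, limma adjusted p 0.0145). Kcnj2, the main strong rectifier of muscle and 38196 bp from Kcnj16, had 7 to 13 reads in NL, 16 to 46 in c-MYC and 43 to 61 with FOXO1AAA and was not called (limma adjusted p 0.948 against c-MYC and 0.25 against NL).

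Among the voltage-gated channels, Kcnh2 led in c-MYC and Kcnh1 with FOXO1AAA. Both belong to the ether-à-go-go family. Kcnh2 (chromosome 5, 24319589 to 24351604, minus strand) carries the rapid delayed rectifier current of the heart. Its FPKM were 1.29, 0.203, 0.486 and 0.281 in NL 1 to 4, 16.1, 20.9 and 10.8 in c-MYC, and 5.05, 6.25 and 4.80 with FOXO1AAA. The groups did not overlap, and both tumour groups lay above NL. The log2 fold change was 5.14 in c-MYC versus NL (SE 0.53, limma adjusted p 1.99e-05) and 3.62 in tumours with FOXO1AAA against NL (SE 0.53, limma adjusted p 0.000268). In tumours with FOXO1AAA against c-MYC it was -1.53 (SE 0.57) and not called (limma adjusted p 0.188), although it was called without NL 1 (limma adjusted p 0.0375), which held 44 of the 70 NL reads. The NL mean of 0.564 FPKM was 0.324 without NL 1.

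Kcnh1 (chromosome 1, 192190774 to 192510159, plus strand), a delayed rectifier of brain, had 0 reads in each of the 7 NL and c-MYC libraries. In c-MYC/FOXO1AAA it had 1644, 2424 and 903 reads, or 9.23, 11.2 and 6.37 FPKM. It was at least 395-fold higher than in c-MYC and at least 193-fold higher than in NL, taken against 3 reads per library (limma adjusted p 2.28e-08 and 1.6e-09). Its exons overlap no exon of another gene, and the authors used its longest transcript of 7242 bp.

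Kcnc4 (chromosome 3, 107438303 to 107459552, minus strand) encodes a voltage-gated channel of nerve and muscle. Kcnc4 had 2 reads over the 4 NL libraries, 2 over the 3 c-MYC libraries and 429, 1102 and 277 with FOXO1AAA, where its FPKM were 4.78, 10.1 and 3.88. The reads per effective library size were 678 times those of c-MYC (95% exact interval from 187 to 5600, counting error only), and the log2 fold change was 7.16 (limma adjusted p 1.8e-06, SE 0.51).

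Kcnq5, which carries a slow current that steadies neurons and smooth muscle, had 475, 502 and 220 reads with FOXO1AAA against 8 over NL and 2 over c-MYC. The reads per effective library size were 79.1 times those of NL (95% exact interval from 40 to 184). Its fitted log2 fold change against c-MYC was 6.72 (SE 0.53, limma adjusted p 3.8e-06). Kcng2, a silent subunit that works only with a partner channel, stood at 1.98, 2.38 and 1.06 FPKM with FOXO1AAA and at 0.188 or lower in the 7 other libraries, with a log2 fold change of 3.90 against c-MYC (SE 0.59, limma adjusted p 0.000621).

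Kcna2, a delayed rectifier of axons, was highest in c-MYC. Its FPKM were 0.586, 0.367, 0.472 and 1.12 in NL, 1.42, 1.69 and 1.56 in c-MYC, and 0.0550, 0.0654 and 0.179 with FOXO1AAA, without overlap between the groups. On the log2 scale the change was -4.17 in tumours with FOXO1AAA against c-MYC (SE 0.51, limma adjusted p 0.000126) and -2.75 in tumours with FOXO1AAA against NL (SE 0.47, limma adjusted p 0.00108), and the latter call was lost with a pseudocount of 1 FPKM (limma adjusted p 0.84). In c-MYC versus NL it was 1.42 (SE 0.47) and not called (limma adjusted p 0.105), but it was called without NL 4 (limma adjusted p 0.0326). The c-MYC/FOXO1AAA mean of 0.0997 FPKM was 0.0602 without c-MYC/FOXO1AAA 3.

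Of the 8 voltage-gated members below the filter, Kcns1, another silent subunit, had 0 reads in NL, 4, 0 and 1 in c-MYC and 47, 73 and 42 with FOXO1AAA (limma adjusted p 6.31e-05 against c-MYC, no filter). Kcna4 and Kcnq3 had no read in NL or c-MYC and were called higher with FOXO1AAA as well, at least 9.59-fold and at least 2.69-fold above c-MYC. Kcnq1, which works in epithelia and heart, was called lower in c-MYC than in NL (log2 fold change -1.98, SE 0.50, limma adjusted p 0.0209). Kcnq1ot1, a long non-coding RNA read from the opposite strand of Kcnq1, had 16 to 59 reads in NL, 137 to 220 in c-MYC and 151 to 218 with FOXO1AAA and was not called. The sources used here do not say whether strand was used in counting, so reads of these overlapping genes cannot be told apart. Exons of 21 of the 49 members overlap an exon of another gene. Among them are Kcnk3, Kcnj3, Kcng2, Kcnq5, Kcnn1, Kcnn2 and Kcnt2, each with a gene on the opposite strand, and the same limit holds for them.

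The leading calcium-activated gene also changed. Kcnn1 and Kcnn2 encode small-conductance channels, which open on calcium alone. Kcnn2 (chromosome 18, 45268860 to 45686024, plus strand) stood at 22.1, 28.6, 21.1 and 22.0 FPKM in NL, 0.475, 3.11 and 2.52 in c-MYC and 0.872, 1.62 and 1.92 with FOXO1AAA. All tumour libraries lay below all NL libraries, and the tumour groups overlapped. The fitted change in log2 units was -3.91 in c-MYC versus NL (SE 0.56, limma adjusted p 0.000291) and -4.06 in tumours with FOXO1AAA against NL (SE 0.56, limma adjusted p 0.000158).

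Kcnn1 (chromosome 8, 70842049 to 70863258, minus strand) stood at 12.7, 12.03, 12.5 and 11.2 FPKM in NL, 21.1, 23.1 and 10.7 in c-MYC and 3.33, 3.01 and 3.30 with FOXO1AAA. NL and c-MYC overlapped, and c-MYC/FOXO1AAA lay below both. As a log2 fold change this was -2.43 against c-MYC (SE 0.24, limma adjusted p 6.35e-05) and -1.91 against NL (SE 0.22, limma adjusted p 0.000171), and the latter call was lost with equal FPKM totals (log2 fold change -0.81, limma adjusted p 0.214). The length used for Kcnn1 was 839 bp of a longest transcript of 4047 bp, and per longest transcript its c-MYC mean was 3.80 FPKM.

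Kcnt1 and Kcnt2 encode channels opened by sodium. Kcnt2 (chromosome 1, 140246158 to 140612067, plus strand) had 25, 24, 21 and 19 reads in NL, 1, 0 and 6 in c-MYC and 1301, 671 and 731 with FOXO1AAA. In FPKM this was 0.632 to 0.753 in NL, 0.0335 to 0.126 in c-MYC and 15.0, 6.38 and 10.6 with FOXO1AAA. The groups did not overlap. The log2 fold change was -3.51 in c-MYC versus NL (SE 0.44, limma adjusted p 0.000107), a call lost with a pseudocount of 1 FPKM (limma adjusted p 0.683). It was 7.41 in tumours with FOXO1AAA against c-MYC (SE 0.47, limma adjusted p 8.68e-07) and 3.90 in tumours with FOXO1AAA against NL (SE 0.44, limma adjusted p 3.05e-05). Kcnt2 averaged 0.0693 FPKM in c-MYC, which was 0.0412 without c-MYC 3.

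Kcnt1 (chromosome 2, 25863734 to 25918273, plus strand) had 0 reads in NL, 2, 0 and 0 in c-MYC and 59, 209 and 21 with FOXO1AAA, or 4.25, 12.02 and 2.01 FPKM in the last group. It was at least 10.4-fold higher with FOXO1AAA than in NL (limma adjusted p 2.57e-05), and its reads were 108 times those of c-MYC (95% exact interval from 29.7 to 899, limma adjusted p 0.000208). The mean of 6.09 FPKM was 3.13 without c-MYC/FOXO1AAA 2. Its FPKM were scaled to 592 bp of a longest transcript of 6639 bp.

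Kcnn4, the intermediate-conductance channel of red blood cells, lymphocytes and secretory epithelia, stood at 0.396 FPKM (± 0.291 SD, 4 libraries) in NL, 0.375 (± 0.0973 SD, 3 libraries) in c-MYC and 2.42 (± 0.758 SD, 3 libraries) with FOXO1AAA. Its fitted log2 fold change against c-MYC was 2.67 (SE 0.61, limma adjusted p 0.0132), and the call was lost without c-MYC/FOXO1AAA 2 (limma adjusted p 0.0511). Kcnma1, the pore of the large-conductance channel opened by calcium and voltage, was below the filter. It had 1 read over the 4 NL libraries, none in c-MYC and 50, 138 and 43 with FOXO1AAA, at least 18-fold above c-MYC (limma adjusted p 9.72e-06, no filter).

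The partner of Kcnma1 was the highest channel gene of the tumours with FOXO1AAA. Kcnmb2 (chromosome 3, 31902507 to 32200180, plus strand), a subunit that makes large-conductance channels inactivate, had 1, 0, 1 and 1 reads in NL, 3, 4 and 3 in c-MYC and 1738, 1122 and 947 with FOXO1AAA. Its FPKM were 24.2, 12.9 and 16.6 with FOXO1AAA and 0.113 or lower in every other library. On the log2 scale the change was 7.41 against c-MYC (SE 0.35, limma adjusted p 1.2e-07). The reads per effective library size were 671 times those of NL (95% exact interval from 229 to 3260, counting error only, limma adjusted p 8.55e-09). Per longest transcript, Kcnmb2 averaged 17.9 FPKM with FOXO1AAA, above Kcnh1 at 8.94 and Kcnt2 at 6.50 on the same scale.

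Of the other auxiliary subunits, Kcne3, a small partner of Kcnq1 in intestine and airway, stood at 0.162 FPKM (± 0.0971 SD, 4 libraries) in NL, 0.593 (± 0.0439 SD, 3 libraries) in c-MYC and 1.58 (± 0.582 SD, 3 libraries) with FOXO1AAA. It was called higher in c-MYC than in NL (log2 fold change 2.06, SE 0.44, limma adjusted p 0.0088), a call lost with a pseudocount of 1 FPKM (limma adjusted p 1), and with FOXO1AAA than in NL (log2 fold change 3.41, SE 0.44, limma adjusted p 9.76e-05). Kcnab2, a beta subunit with an oxidoreductase fold, had the highest deposited FPKM of the auxiliary genes in NL (2.37) and c-MYC (4.56), scaled to 404 bp of a longest transcript of 3922 bp, and was not called (limma adjusted p 0.211 in c-MYC versus NL). Without NL 1 it was called there (limma adjusted p 0.0187) and in tumours with FOXO1AAA against NL (limma adjusted p 0.00705).

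Among the auxiliary genes below the filter, Kcnip3 and Kcnip4, calcium-binding partners of Kcnd channels, were called higher with FOXO1AAA than in c-MYC (limma adjusted p 8.21e-05 and 0.0257, no filter). Kcnip3 had 10, 7, 5 and 8 reads in NL, 2, 3 and 3 in c-MYC and 51, 48 and 35 with FOXO1AAA. Kcnab3 was called lower with FOXO1AAA than in c-MYC (limma adjusted p 0.0232) and than in NL (limma adjusted p 0.000275), at 0.727, 0.412 and 0.120 FPKM in NL, c-MYC and c-MYC/FOXO1AAA.

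**Figure D4:**
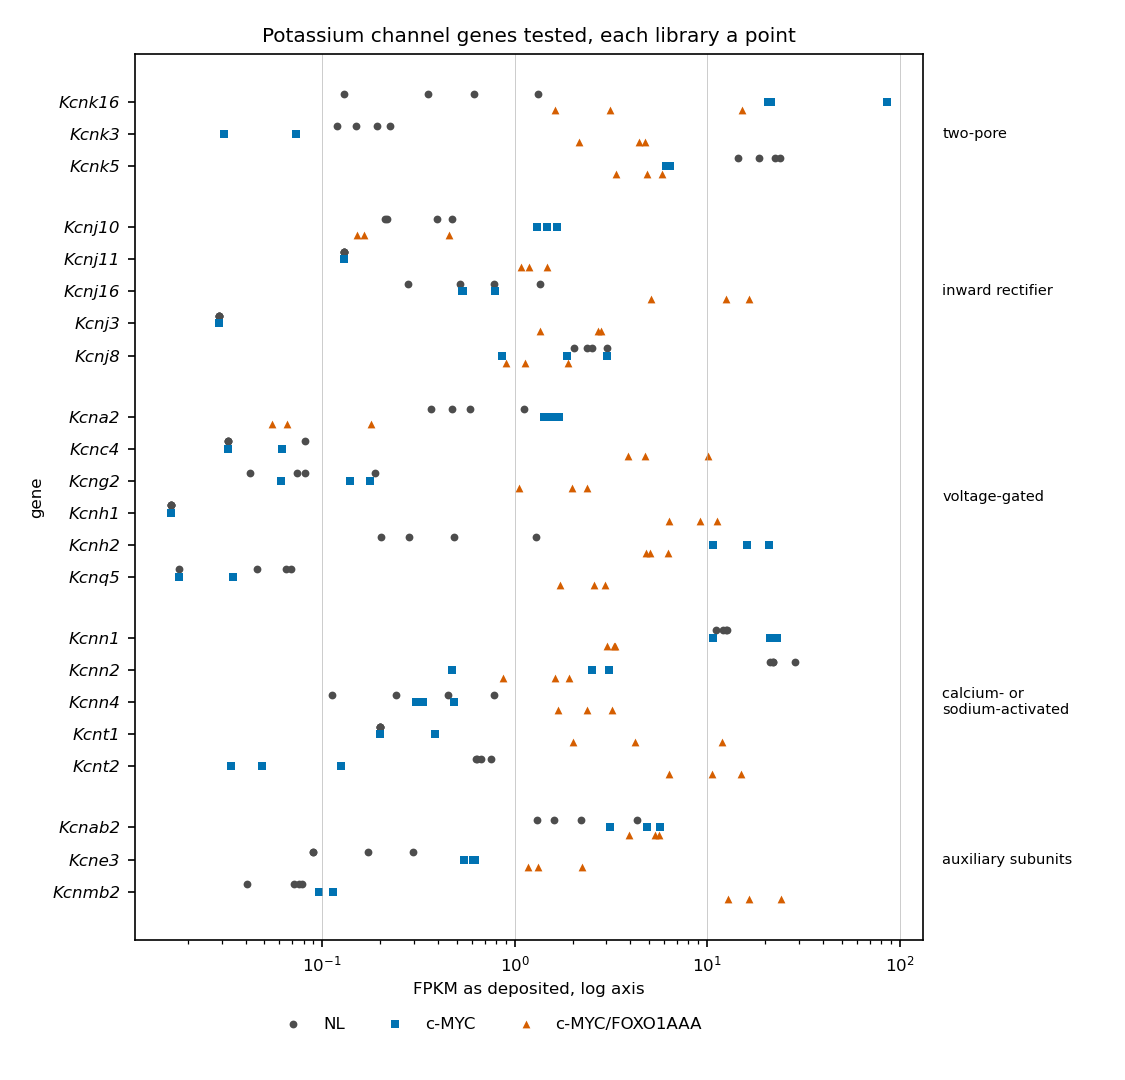
FPKM of 22 of the 23 tested members (y axis, by family) on a log axis (x axis), with a point for each library of NL, c-MYC and c-MYC/FOXO1AAA. The NL points lie above all others for Kcnk5 and Kcnn2, the c-MYC points for Kcnk16, Kcnj10 and Kcnh2, and the c-MYC/FOXO1AAA points for Kcnh1, Kcnc4 and Kcnmb2. Levels of different genes cannot be ranked on this axis, because the authors scaled some to short transcripts, and libraries with no read of a gene share a floor.

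The libraries with FOXO1AAA did not rank alike across the 13 members called higher than in c-MYC. The first was highest for 6 and the second for 7 of them, and the third was highest for none and lowest for 8. The second was lowest for 5, including Kcnj16, Kcnt2 and Kcnmb2, and highest for Kcnh1, Kcnc4 and Kcnt1. Depth moved with part of this order, since the second library was the deepest (20.55 M reads) and the third the shallowest of the group (13.48 M), and its part in the order was not tested.

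Sequence around the start of transcription was taken from RefSeq promoters (GRCm38.p6), in which 34 of the 49 members had 50 promoters of 300 bases. Each held 250 bases before the start and 50 bases after it. The E-box CACGTG, which MYC with its partner MAX is known to bind, was in 6 of 50 promoters (12%) and in 7.15% of all 32851. It was found for Kcnk5, Kcnj2, Kcnn4, Kcnab1 and Kcne4. For Kcnk5 it did not lie within the 250 bases before the start. The forkhead motif TGTTTAC or its reverse complement was in 0 of 50 promoters and in 3.65% of all. A match is a description of the letters, and no match says nothing about binding of a factor elsewhere. The 250 bases before the start are shown for Kcnh1 and Kcnk16, the genes with the steepest increase with FOXO1AAA and in c-MYC, neither of which holds a motif, and for Kcnn4, which was called higher with FOXO1AAA and holds the E-box in capitals. Each is given on its own strand.
Kcnh1, chr1:192190527-192190776, plus strand: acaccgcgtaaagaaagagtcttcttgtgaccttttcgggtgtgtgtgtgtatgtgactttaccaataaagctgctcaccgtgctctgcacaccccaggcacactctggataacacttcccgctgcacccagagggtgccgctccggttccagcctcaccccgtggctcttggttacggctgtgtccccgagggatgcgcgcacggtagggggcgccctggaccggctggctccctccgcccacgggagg
Kcnk16, chr14:20269270-20269519, minus strand: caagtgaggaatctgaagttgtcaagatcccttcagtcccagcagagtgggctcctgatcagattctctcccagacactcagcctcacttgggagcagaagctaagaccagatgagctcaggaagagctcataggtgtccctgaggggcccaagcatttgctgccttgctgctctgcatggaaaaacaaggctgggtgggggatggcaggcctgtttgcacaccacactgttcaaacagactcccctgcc
Kcnn4, chr7:24370013-24370262, plus strand: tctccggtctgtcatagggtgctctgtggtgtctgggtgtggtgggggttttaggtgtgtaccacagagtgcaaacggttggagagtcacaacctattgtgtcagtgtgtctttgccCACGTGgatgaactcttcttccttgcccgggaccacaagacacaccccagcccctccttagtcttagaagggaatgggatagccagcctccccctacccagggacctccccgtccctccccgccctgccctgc

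Other genes that move potassium were set beside the channels. Of 30 pumps, cotransporters and channel partners on this list, 23 were in the table and 19 were tested. In c-MYC versus NL 3 were called higher and 6 lower, in tumours with FOXO1AAA against c-MYC 5 and 5, and in tumours with FOXO1AAA against NL 7 and 7. Over all genes tested the shares were 24.5% and 23.6%, 15.9% and 12.7%, and 31.2% and 26.6%, and each count of the 19 lies within 3 genes of what its share gives.

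The 3 beta subunits of the sodium pump, which loads the cell with potassium, did not move together. Atp1b1 fell from 24.9 FPKM in c-MYC to 2.93 with FOXO1AAA (log2 fold change -3.46, SE 0.46, limma adjusted p 0.000382), and Atp1b3 rose from 26.4 to 93.3 FPKM (log2 fold change 1.82, SE 0.11, limma adjusted p 5.92e-06). Atp1b2 stood at 2.57 FPKM in c-MYC and 1.67 with FOXO1AAA and was not called (limma adjusted p 0.849). Of the small regulators of the pump, Fxyd1 fell from 639 FPKM in NL to 66.1 in c-MYC (log2 fold change -3.28, SE 0.16, limma adjusted p 9.59e-08), and Fxyd5 rose from 2.47 FPKM in c-MYC to 13.2 with FOXO1AAA (log2 fold change 2.51, SE 0.30, limma adjusted p 0.000273).

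The potassium-chloride cotransporter Slc12a7 fell from 79.6 FPKM in c-MYC to 15.2 with FOXO1AAA (log2 fold change -2.38, SE 0.17, limma adjusted p 7.5e-06). Hcn3, a cation channel opened by hyperpolarization, fell from 18.4 FPKM in NL to 4.31 in c-MYC (log2 fold change -2.09, SE 0.17, limma adjusted p 1.09e-05) and to 2.05 with FOXO1AAA (limma adjusted p 0.0318 against c-MYC). The potassium channels of the endoplasmic reticulum moved apart between NL and c-MYC, as Tmem38b fell from 174 to 37.4 FPKM (log2 fold change -2.21, SE 0.12, limma adjusted p 6.06e-07) and Tmem38a rose from 2.99 to 18.2 (log2 fold change 2.62, SE 0.16, limma adjusted p 6.79e-07).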

How the data were processed

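RNA was sequenced from 10 mouse liver libraries, grouped by their titles. Per the labels, reads were checked with FastQC 0.11.7 and the build was GRCm38. According to the methods, the authors counted reads by gene, converted Ensembl identifiers to symbols and used edgeR. The aligner, the counter and the use of strand are not given in the sources used here. The deposited values are log2 FPKM, which the authors formed after adding a prior count of 2 in proportion to library size. From this floor the whole reads of all 16697 genes were recovered, with a single solution for each (tolerance 2e-06 reads plus 5e-09 per read). Another 372 rows hold no symbol and no value and were left out. The length used by the authors was shorter than the longest transcript for 22 of the 49 members, so levels of different genes are compared per longest transcript of the GENCODE annotation.

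The deposited log2 values were fitted with limma 3.58.1 (R 4.3.3, statmod 1.5.0) as a mean per group over all 10 libraries. The treat function tested 2-sided for a change above 1.5-fold, with trend and robust estimation. No count model was fitted in the main test, since log2 FPKM are no counts. Scripts were tested on simulated data. Folds against a group with no read are lower bounds at 3 reads per library, and ratios with a 95% interval are exact conditional intervals. Both cover counting error only. Replicates differed by more than sampling noise in each pair (chi-square per degree of freedom 8.66 to 31.6). The alternatives were another pseudocount, filter, scaling, threshold or variance estimate, a fit over 2 groups, a replicate block, omission of each library and limma's voom on the recovered reads. Voom was added after seeing the data. The members, the families, the lists of potassium handling genes and cell type markers and the rules for naming were chosen with earlier results of these data known. Members past the threshold were named, those with a mean of at least 5 FPKM in a group were given in every library, the highest member of a family in a group was named, and listed potassium handling genes were named from 10 FPKM. Abcc8, Abcc9 and members called only without the filter were named after their values were seen. A few listed genes are part of the counts but are not reported here by name. Positions are those of the annotation, matched by symbol.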

Additional observations from a re-analysis of the deposited data

Results flagged for a closer look

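Among the 4 NL libraries a value far from the other three was looked for in 18 tested members whose NL values differed, on the log2 scale. It was found for 3, where chance gives about 1 in 20, or 0.9. Kcnn2 in NL 2 stood at 28.6 FPKM, above the others at 21.1 to 22.1. Kcnc4 in NL 1 stood at 0.08167 FPKM, which is 2 reads against 0 in the others. Kcnmb2 in NL 2 stood at 0.0406 FPKM, which is 0 reads against 1 in the others.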

How the results depend on the processing

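Of 42 calls of a member reported by name in a comparison, 33 were made under every alternative run, 9 were lost in at least 1, and none changed sign. All 6 uncalled values of at least 2-fold were called under at least 1 alternative. Members called higher and lower in c-MYC versus NL numbered 8 and 3 with libraries rescaled to the same FPKM total, and 2 and 2 with a mean of at least 5 FPKM, a filter that left 6 members to test. There were 3 lower with a pseudocount of 1 FPKM and 9 when all were tested. Against c-MYC, tumours with FOXO1AAA had 23 higher when all were tested, and 1 higher and 1 lower with a mean of at least 5 FPKM. The number lower was 5 with a pseudocount of 1 FPKM, with no fold-change threshold, with the fit over 2 groups and with voom. In c-MYC/FOXO1AAA versus NL, 27 were higher without a filter, 3 were higher with a mean of at least 5 FPKM, and 2 were lower after rescaling. The rescaling to the same FPKM total also moved the genes as a whole. For c-MYC tumours against normal liver, the median log2 fold change over all genes tested went from 0.08 to 1.01. For tumours with FOXO1AAA against normal liver it went from 0.21 to 1.31. Among the alternatives, the share of all genes called was counted only without a filter, so the other counts stand without a background. Apart from changes due to fewer or more genes tested, the cause was not tested.

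With each library left out in turn, c-MYC versus NL had 4 to 5 higher and 5 lower (5 to 5), c-MYC/FOXO1AAA versus c-MYC had 12 to 13 higher and 3 to 5 lower, with 5 without NL 1, and c-MYC/FOXO1AAA versus NL had 14 to 16 higher and 4 lower (4 to 4). The replicate numbers share no design, and the deviations of same-numbered libraries were correlated at -0.0398 to 0.0272. With the replicate number as a block, in which NL 4 has no partner, the counts were 5 and 5, 13 and 3, and 15 and 4, and the 1 added call was Kcna2 in c-MYC versus NL (log2 fold change 1.74, limma adjusted p 0.0405). Depth limits the members with 1 to 3 reads over a whole group, whose ratios have intervals spanning more than an order of magnitude.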
